A study of Mus musculus with 2 samples.

Results

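The 10 genes described here encode receptors and junction proteins of the endothelium, the cell layer that lines blood and lymphatic vessels: Pecam1, Cdh5, Kdr, Flt1, Flt4, Tek, Tie1, Emcn, Esam and Cldn5. They were chosen by name, as all non-control probes of the array that carry one of these gene names. All 10 were among the 19801 genes tested, through 12 of their 13 probes. Their expression was compared between ureters of mouse embryos at E14.5 that had lost Gata6 in the Tbx18 lineage, called Gata6cKO, and ureters of control embryos.

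The Gata6cKO embryos had the genotype Tbx18(cre/+);Gata6(fl/fl), in which a cre recombinase expressed from the Tbx18 locus acts on 2 floxed copies of Gata6. The control embryos were labelled Gata6(fl/?), which names at least 1 floxed copy and no cre. Both were of the NMRI strain. The 4 RNAs were compared on 2 arrays, each holding 1 Gata6cKO and 1 control RNA in different dyes. On the replicate 1 array the RNAs were from males and Gata6cKO carried Cy5, and on the replicate 2 array they were from females and the dyes were exchanged. Replicate, sex and dye therefore cannot be told apart, and neither can loss of Gata6, presence of cre and the cre-bearing Tbx18 copy. Whether embryos were pooled for an RNA is not stated. The p-values rest on the spread between the 2 arrays, pooled largely across genes, and not on a known number of embryos. Tbx18 marks mesenchyme around the ureteric epithelium, and the labels do not state that cre acts in endothelium.

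In each of the 4 RNAs the share of spots well above background was 67.2% to 68.5%, and no spot was saturated. The number of arrays limits the precision. Probes for the uroplakins of the ureteric epithelium, for Tbx18 and for the smooth muscle actin Acta2 were above background, as the tissue label implies. Gata6 itself had a log2 ratio of 0.65 ± 0.12 in the RNA labelled Gata6cKO (SE, n = 2 arrays; limma adjusted p = 0.00612). Whether its probe lies in the floxed part was not settled here, so this value checks nothing about the labels. Elsewhere on these arrays, 8 of 12 urothelial markers and 5 of 10 markers of ureteric mesenchyme and smooth muscle fell, and 10 of 11 neuronal and glial markers rose. Over all genes tested, 2.35% fell and 2.20% rose (limma adjusted p under 0.05). These lists were chosen with earlier results of these data known.

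Endothelial cells are recognised by a small set of surface proteins that act together. KDR, FLT1 and FLT4 are tyrosine kinase receptors for vascular endothelial growth factors (VEGFs). TEK, also called TIE2, is the receptor for the angiopoietins, and TIE1 is its relative that modulates TEK signalling. VE-cadherin (CDH5), claudin-5 (CLDN5), ESAM and PECAM1 hold neighbouring endothelial cells together, and endomucin (EMCN) is a sialomucin of their luminal surface, best known from veins and capillaries.

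Of these 10 genes only Tek passed the test, and it fell. The level of Tek was 1.46-fold lower in Gata6cKO ureters, with a log2 ratio of -0.55 ± 0.11 (SE, n = 2 arrays). Of the receptors for VEGFs, of Tie1 and of the 5 surface and junction genes, none passed. Among all genes tested, 2.35% were called lower and 2.20% higher (limma adjusted p under 0.05), 4.55% in either direction, against 1 and 0 of the 10 genes. At an unadjusted p under 0.05 the counts were again 1 lower and 0 higher, against 6.10% and 5.26% of all genes. One call in a list of this size is a result about Tek and was not read as a change of the list. The median log2 ratio of the 10 genes was -0.07, beside a median of -0.00 over all genes, and 7 of the 10 ratios lay below 0, as did 50.8% of all ratios. In bulk RNA, fewer cells of a type and less RNA per cell cannot be told apart.

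**Figure D1:**
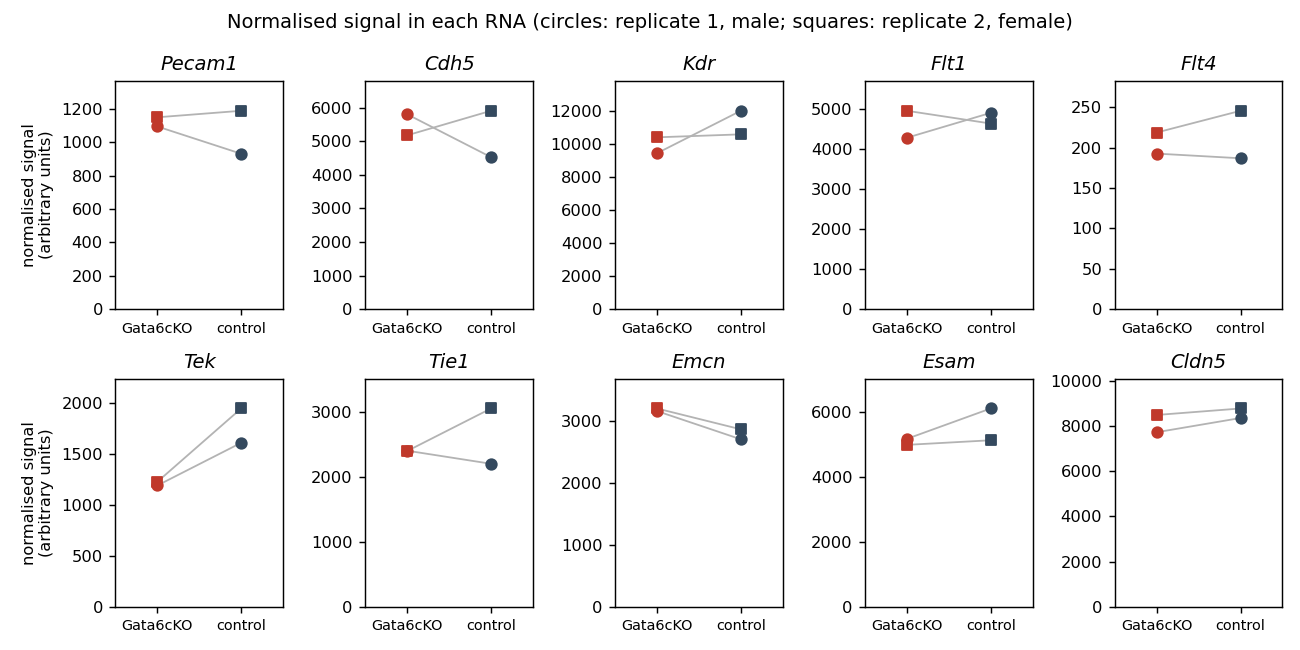
Normalised signal of each gene (vertical axes from 0, arbitrary units, scale differing between genes) in Gata6cKO and control RNAs, with circles for the replicate 1 array, squares for the replicate 2 array and lines joining the RNAs hybridised together. The Gata6cKO values of Tek are 1191 and 1227 and lie below both control values, 1610 and 1947.

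The angiopoietin receptor gene Tek was read by 1 probe (mm9 chromosome 4, 94540624 to 94540683, plus strand). Its normalised signal, a background-corrected intensity in arbitrary units that is comparable between RNAs but not between probes, was 1191 and 1227 in the male and female Gata6cKO RNAs, and 1610 and 1947 in the male and female control RNAs. Both Gata6cKO values lay below both control values, and they were close to each other, while the control values were further apart. Such a gap without overlap in the lower direction was found for 17.6% of all genes. The log2 ratio was -0.43 on the replicate 1 array and -0.67 on the replicate 2 array. Each probe was printed in 4 spots on each array, and all 4 Tek spots were below 0 on both, between -0.49 and -0.37 on the first and between -0.73 and -0.61 on the second. The limma adjusted p of Tek over all genes was 0.0122, and its 95% interval ran from -0.80 to -0.30, or from 0.575 to 0.811 as a ratio. The call was lost under 3 other settings (adjusted p of 0.684 under median centring, 0.0628 when dim probes were kept and 0.0580 when each channel was fitted separately). The log2 ratio lay between -0.59 and -0.55 over the 10 settings. Settings that changed only the filter, the intensity trend, the averaging of probes or the fit of channels left it at -0.55 by construction. The remaining settings read the same spots. On the same arrays 3 of 12 erythroid markers fell, against 2.35% of all genes, and the list median was -0.32. None of these 3 calls held under median centring or when dim probes were kept. At an unadjusted limma p under 0.05, 9 of the 12 were lower, against 6.10% of all genes. The part of these markers in the lower Tek signal was not tested.

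Tie1, the orphan relative of Tek, was read by 1 probe (mm9 chromosome 4, 118144132 to 118144191, minus strand). Its normalised signal was 2400 and 2395 in the Gata6cKO RNAs, and 2199 and 3049 in the control RNAs. The male control lay below and the female control above both Gata6cKO values. The log2 ratio was accordingly 0.13 on the replicate 1 array and -0.35 on the replicate 2 array, with a mean of -0.11 ± 0.13 and an interval from -0.39 to 0.17. The intervals of Tek and Tie1 overlap, and the difference between their ratios was not tested.

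The promoter windows of this receptor pair are shown because Tek was the gene that passed and Tie1 the relative that did not. Each window, from RefSeq (GRCm38.p6), runs from 250 bases before to 50 after the annotated start, in the direction of transcription. Capitals mark matches on either strand to AGATAA, letters that GATA factors can bind, and to GGAA, the core of the sites that ETS factors of the endothelium bind. The Tek window is chr4:94739039-94739338 on the plus strand and the Tie1 window chr4:118489800-118490099 on the minus strand.
Tek: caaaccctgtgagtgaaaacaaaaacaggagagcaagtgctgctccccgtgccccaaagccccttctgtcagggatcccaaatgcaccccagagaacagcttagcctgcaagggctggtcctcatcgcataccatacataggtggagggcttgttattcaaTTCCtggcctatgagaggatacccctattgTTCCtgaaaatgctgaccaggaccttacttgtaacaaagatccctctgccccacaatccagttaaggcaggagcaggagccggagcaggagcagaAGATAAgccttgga
Tie1: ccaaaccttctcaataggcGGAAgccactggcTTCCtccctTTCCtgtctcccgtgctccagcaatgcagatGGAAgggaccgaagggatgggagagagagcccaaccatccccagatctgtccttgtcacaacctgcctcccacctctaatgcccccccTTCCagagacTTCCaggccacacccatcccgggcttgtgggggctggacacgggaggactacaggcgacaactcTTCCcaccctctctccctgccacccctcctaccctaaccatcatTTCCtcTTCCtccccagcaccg

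The Tek window holds 1 match to AGATAA, which begins at base 37 after the start, and 2 matches to GGAA. The Tie1 window holds no AGATAA and 9 matches to GGAA. A window was found for 7 of the 10 genes (Kdr, Flt1, Flt4, Tek, Tie1, Emcn and Cldn5). Among these, Tek alone has an AGATAA, and Cldn5 alone has no GGAA. Over all 32851 windows of the table, 11.2% hold AGATAA and 96.0% hold GGAA. A match describes letters in the window and is neither a site nor a cause.

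The genes of the VEGF receptors did not pass. Kdr encodes VEGFR2, the main signalling receptor of the growing vessel, and its brighter probe (mm9 chromosome 5, 76329309 to 76329368, minus strand) gave a normalised signal of 9456 and 10420 in Gata6cKO RNAs, and of 12030 and 10600 in control RNAs. Both Gata6cKO values were below both control values, narrowly so in females. The log2 ratio was -0.19 ± 0.12, with -0.35 on the replicate 1 array and -0.03 on the replicate 2 array (limma adjusted p = 0.798). A second Kdr probe (76330395 to 76330454) had the same mean of -0.19, from -0.28 and -0.10 on the 2 arrays. The agreement of the probes concerns the same RNAs and adds no sample.

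Flt1 encodes VEGFR1, which binds VEGF-A tightly and as a soluble form withholds it from KDR. Its brightest probe (mm9 chromosome 5, 148373791 to 148373850, minus strand) gave 4273 and 4946 in Gata6cKO RNAs, and 4894 and 4628 in control RNAs. The groups overlapped, and the log2 ratio was -0.05 ± 0.12, from -0.20 and 0.10 on the arrays. A second probe, listed against another Flt1 transcript (148446872 to 148446931), had a mean of 0.02, from 0.15 and -0.10, with the order of the arrays turned round. The third Flt1 probe (148465976 to 148466035) had 0 of 4 spots well above background in each RNA and was not tested.

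Flt4 encodes VEGFR3, the receptor of lymphatic and of sprouting endothelium. Its probe was dim, with a processed scanner intensity of 32.6 and 42.1 in Gata6cKO RNAs, and of 31.1 and 49.2 in control RNAs. On the normalised scale its probe (mm9 chromosome 11, 49465646 to 49465705, plus strand) gave 192.5 and 218.6 in Gata6cKO RNAs, and 186.7 and 245.5 in control RNAs. The groups overlapped, and the log2 ratio was -0.06 ± 0.11. The offset of 50 added at background correction shrinks ratios of such dim probes. Over the 10 settings, 1 of them with no offset, the Flt4 log2 ratio lay between -0.10 and -0.06.

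**Figure D2:**
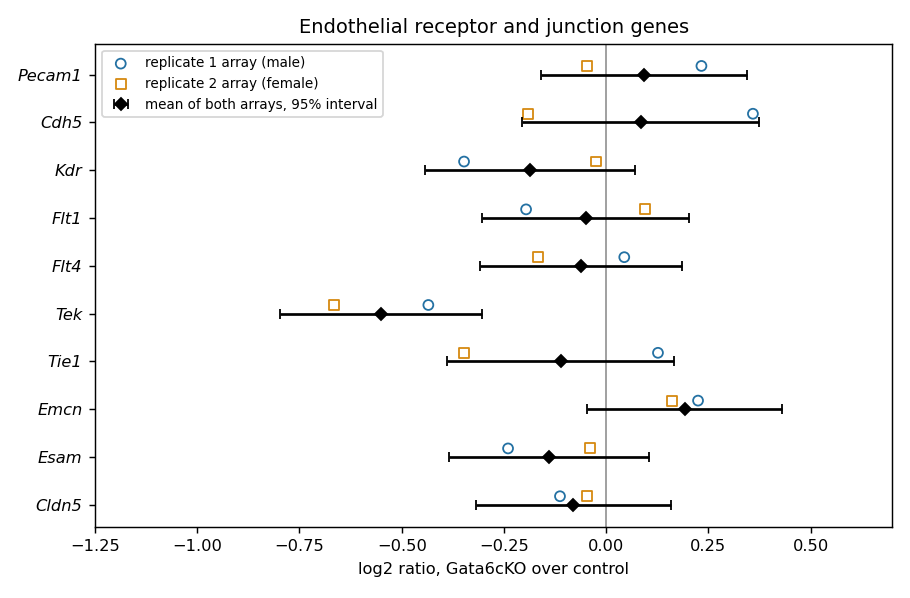
Log2 ratio of Gata6cKO over control (horizontal axis) for each gene, with diamonds for the mean of both arrays, bars for the 95% interval from the limma fit, and open symbols for each array. The interval of Tek, from -0.80 to -0.30, is the one that does not reach 0.

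The junction genes showed no call in either direction. Cdh5, which encodes the adhesion molecule of endothelial adherens junctions, was measured at 5806 and 5179 in Gata6cKO RNAs, and at 4528 and 5910 in control RNAs (mm9 chromosome 8, 106668159 to 106668218, plus strand). Its arrays disagreed most, by 0.55 on the log2 scale, with 0.36 in the male pair and -0.19 in the female pair, and the mean was 0.08 ± 0.13. All 4 Cdh5 spots were above 0 on the first array and all 4 below 0 on the second. The spot-to-spot SD was 0.02 and 0.04, so that the disagreement lies between the arrays and not between spots.

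Cldn5, the claudin that seals endothelial tight junctions, gave 7730 and 8495 in Gata6cKO RNAs, and 8360 and 8782 in control RNAs (mm9 chromosome 16, 18778046 to 18778105, plus strand). The groups overlapped, and the log2 ratio was -0.08 ± 0.11. Esam, an immunoglobulin-like adhesion molecule of endothelial tight junctions that platelets also carry, gave 5162 and 4978 in Gata6cKO RNAs, and 6096 and 5119 in control RNAs (mm9 chromosome 9, 37345795 to 37345854, plus strand). Its log2 ratio was -0.14 ± 0.11, mostly from the replicate 1 array at -0.24.

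Pecam1, an adhesion molecule of endothelial contacts that platelets and leukocytes also carry, gave 1094 and 1149 in Gata6cKO RNAs, and 930.7 and 1188 in control RNAs (mm9 chromosome 11, 106540864 to 106540923, minus strand). The Gata6cKO values lay between the control values, with a log2 ratio of 0.09 ± 0.12. Emcn gave 3163 and 3205 in Gata6cKO RNAs, and 2707 and 2868 in control RNAs (mm9 chromosome 3, 137086389 to 137086448, plus strand), from its non-outlier spots, since 1 spot on 1 array was left out. Both Gata6cKO values of Emcn were above both control values, a gap in the higher direction that 15.9% of all genes share. The log2 ratio of Emcn was 0.19 ± 0.11, and the limma adjusted p of 0.688 did not pass.

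For the 9 genes that did not pass, the 95% intervals of the main setting bound the change that these arrays allow under it. Their lowest limit was a ratio of 0.736, for Kdr, and their highest a ratio of 1.35, for Emcn. Differences within a gene's interval are not excluded by these 2 arrays, and a p that misses the threshold does not show equal levels. The intervals come from the limma fit, were not widened for the number of genes, and pool the spread largely across genes. Of the 10 genes, 5 had the same sign on both arrays (Kdr, Tek, Emcn, Esam and Cldn5), as did 48.8% of all genes. Of these 5, 4 were below 0 on both arrays, as were 25.5% of all genes, and the other 5 genes had opposite signs, as had 51.2%.

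**Figure D3:**
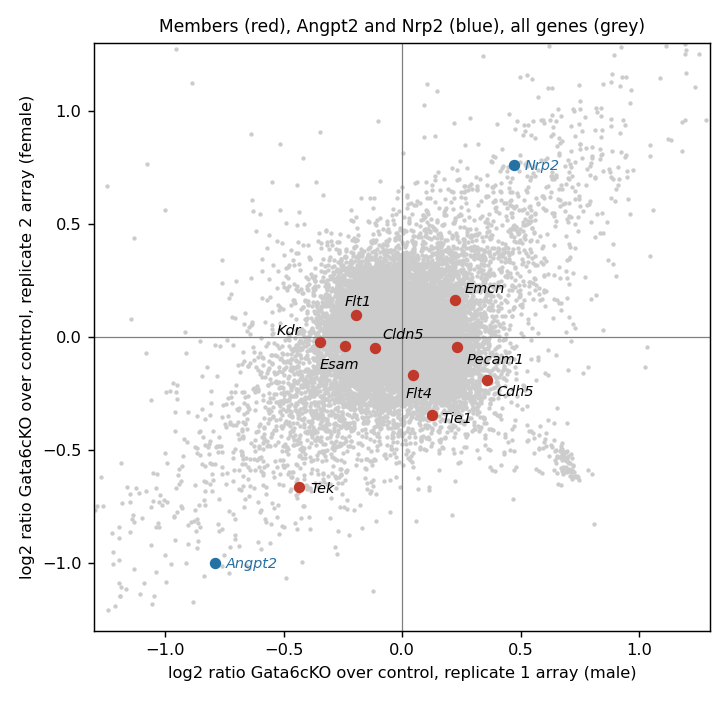
Log2 ratio of Gata6cKO over control on the replicate 1 array (horizontal axis) and on the replicate 2 array (vertical axis) for the 10 genes in red, for Angpt2 and Nrp2 in blue and for all genes tested in grey, with genes beyond 1.3 on either axis outside the frame. Tek lies at -0.43 and -0.67, and the other red points lie nearer the origin.

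Among the 14 measured ligands and coreceptors of these receptors, 1 gene fell, 1 rose and 12 did not pass, with a list median of 0.01, while 4.55% of all genes were called. Angpt2, an angiopoietin that sprouting endothelium makes and that competes with Angpt1 for TEK, fell. Its normalised signal was 1283 and 909.3 in Gata6cKO RNAs, and 2219 and 1818 in control RNAs, without overlap. The log2 ratio of Angpt2 was -0.90 ± 0.11, a 1.86-fold lower level (limma adjusted p = 3.85e-04), and it passed in all 10 settings, with an adjusted p of up to 0.0427. Angpt1, the agonist that mesenchyme and mural cells make, gave 1719 and 1272 in Gata6cKO RNAs, and 1426 and 1381 in control RNAs, with a log2 ratio of 0.08 ± 0.12. Ptprb, the endothelial phosphatase that restrains TEK, had a log2 ratio of -0.22 ± 0.11 at its brightest probe, which did not pass, and of -0.31 and 0.07 at its other kept probes.

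Nrp2, a coreceptor of lymphatic and venous endothelium that neurons and mesenchyme also express, rose. It gave 16050 and 17690 in Gata6cKO RNAs, and 11570 and 10440 in control RNAs, without overlap. The log2 ratio of Nrp2 was 0.62 ± 0.12 (limma adjusted p = 0.00652), and 0.48 at its second probe. The call of Nrp2 was lost with median centring (adjusted p = 0.746) and when dim probes were kept (adjusted p = 0.05615). On the same arrays the markers of neurons and glia had a list median of 1.10, with a summed signal of 104800 and 114100 in Gata6cKO RNAs, and of 94400 and 86500 in control RNAs. Their part in the rise of Nrp2 was not tested. Nrp1, the coreceptor of KDR, had a log2 ratio of -0.08. The ligand genes Vegfa, Vegfb, Vegfc, Vegfd and Pgf had log2 ratios of 0.03, 0.02, 0.08, -0.03 and -0.09, and none passed. The signs of Vegfa and Vegfb turned with median centring, to -0.02 each.

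Over the 6 further endothelial lists together (ligands and coreceptors, surface and secreted genes, transcription factors, arterial, venous and lymphatic genes), 3 of 69 measured genes fell, 2 rose and 64 did not pass, with a median of -0.01. The share called over all genes was 4.55%. Among 23 surface and secreted genes the median was -0.00, and their summed signal was 216700 and 217500 in Gata6cKO RNAs, and 228100 and 216600 in control RNAs. The groups overlapped in this sum. The summed signal of the 10 genes themselves was 40470 and 42210 in Gata6cKO RNAs, and 43540 and 44340 in control RNAs, without overlap. Such sums add signals that are not comparable between probes, and they weigh bright probes most. No share of all genes stands beside the gap in the sum of the 10 genes. Kdr, whose probe was the brightest among the 10 genes, gave 9456 and 10420 against 12030 and 10600 in controls. Taken singly, 2 of the 10 genes lay lower without overlap and 1 higher, against 17.6% and 15.9% of all genes. Thbd, the thrombin receptor thrombomodulin of endothelium, stood at 0.48 ± 0.13 on the log2 scale (limma adjusted p = 0.0556) and was called higher in 3 of the 10 settings. The broad endothelial markers Cd34 and Eng had log2 ratios of 0.04 and 0.19 and did not pass, and Cd34 turned to -0.01 with median centring.

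S1pr1, the receptor through which sphingosine 1-phosphate tightens endothelial junctions and which lymphocytes and other cells also carry, fell. It gave 1157 and 969.3 in Gata6cKO RNAs, and 1637 and 1526 in control RNAs, without overlap. The log2 ratio of S1pr1 was -0.58 ± 0.11, a 1.49-fold lower level (limma adjusted p = 0.00749, and 0.597 with median centring, where the call was lost). Vwf, the clotting factor that endothelium stores and that megakaryocytes also make, passed as higher, yet its groups overlapped. It gave 1716 and 472.4 in Gata6cKO RNAs, and 546.3 and 359.3 in control RNAs, so that the male Gata6cKO RNA set the value. The log2 ratio of Vwf was 1.65 on the replicate 1 array and 0.39 without it, on the replicate 2 array (limma adjusted p = 0.0101 over both). Fitting each channel separately gave Vwf an adjusted p of 0.651, and keeping dim probes one of 0.239, so that its call was lost. The third fall was that of Nt5e, an ecto-nucleotidase listed as venous that mesenchyme also makes, at -0.90 ± 0.12 (limma adjusted p = 4.51e-04).

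Of 13 measured transcription factors of endothelium none passed, and their list median was -0.05. At an unadjusted p under 0.05 the count was 1, Erg, an ETS factor of endothelial identity, at a log2 ratio of -0.31 ± 0.11 (limma adjusted p = 0.203). With the deposited series values Erg had an adjusted p of 0.0221. Sox17 and Sox18, factors of arterial and of lymphatic fate, had log2 ratios of -0.00 and -0.05, and Gata2, the GATA factor that endothelium expresses most, one of 0.05 that turned to -0.02 with median centring. Etv2, an early factor that specifies endothelium, was not well above background.

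Neither arterial nor lymphatic genes held a call. Of 11 arterial genes none passed, with 2 lower at an unadjusted p under 0.05, the connexin genes Gja5 (-0.30 ± 0.11, limma adjusted p = 0.226) and Gja4 (-0.26 ± 0.11, limma adjusted p = 0.345). The groups of Gja5 overlapped, and a dimmer kept Gja5 probe had a log2 ratio of -0.02. Of 4 measured lymphatic genes none passed. Prox1, the factor that sets lymphatic fate, had a log2 ratio of 0.10, and Lyve1, a hyaluronan receptor of lymphatic vessels and of some macrophages, one of 0.28, which passed only without adjustment (limma adjusted p = 0.383). Lyve1 stood at 0.08 on the replicate 1 array and 0.49 on the replicate 2 array, and its groups overlapped.

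The 15 widely expressed junction partners had a list median of -0.07. Among 10 genes of pericytes and other mural cells, 1 rose and 9 did not pass. Kcnj8, a potassium channel gene of pericytes, rose by 0.51 ± 0.12 on the log2 scale (limma adjusted p = 0.0264), from 0.33 and 0.70 on the arrays, a call that was lost under median centring (adjusted p = 0.965), when dim probes were kept (0.129) and when each channel was fitted separately (0.448). Pdgfrb, the receptor by which vessels recruit pericytes, stood at -0.36 ± 0.13 on the log2 scale, short of the threshold, from -0.08 on the replicate 1 array and -0.64 on the replicate 2 array.

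**Figure D4:**
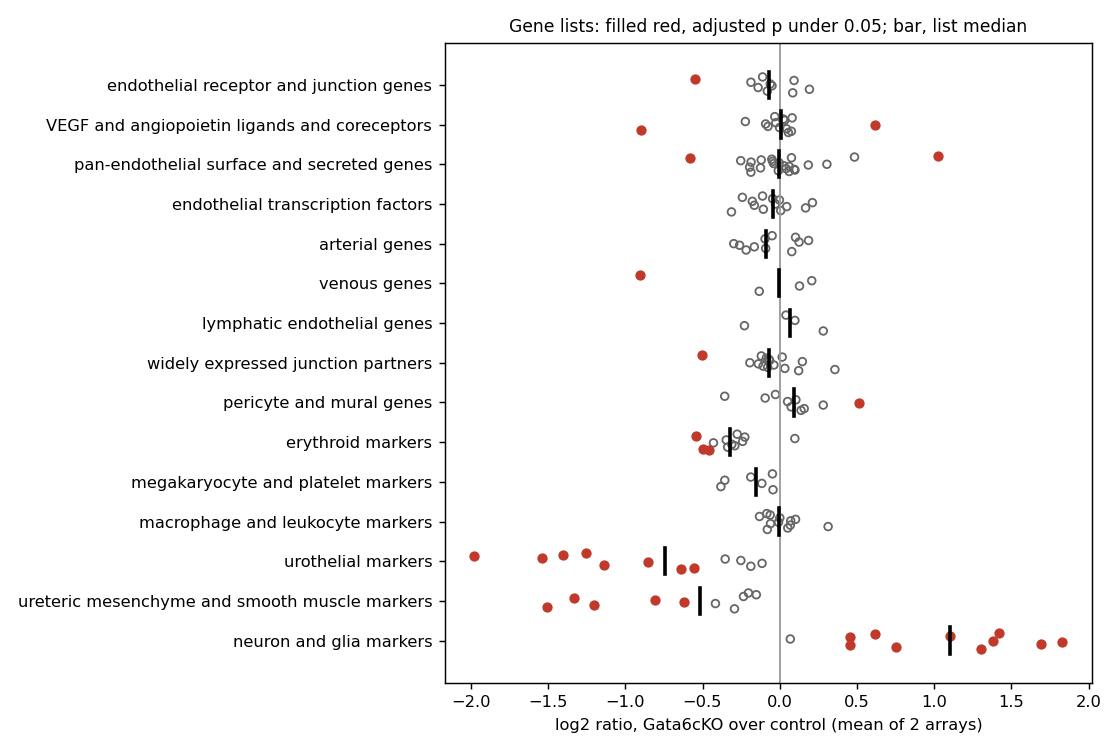
Log2 ratio of Gata6cKO over control (horizontal axis, mean of 2 arrays) for each measured gene of each list (rows), with filled red points for an adjusted p under 0.05 and black bars for list medians. The medians of the endothelial lists lie between -0.09 and 0.07, beside -0.75 for urothelial markers and 1.10 for neurons and glia. The lists were chosen with earlier results of these data known.

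Platelet and leukocyte markers were checked because platelets also carry PECAM1 and ESAM, leukocytes PECAM1, and megakaryocytes make VWF. Erythroid markers were added as the remaining blood cells, and not for these proteins. Of 12 erythroid markers 3 fell and none rose, against 2.35% and 2.20% of all genes, and the list median was -0.32. At an unadjusted limma p under 0.05, 9 of the 12 were lower, against 6.10% of all genes. Both Gata6cKO signals lay below both control signals for 10 of the 12, against 17.6% of all genes. The 3 called were Slc4a1, the anion exchanger of red cells (-0.54 ± 0.12), Alas2, the erythroid enzyme of haem synthesis (-0.49 ± 0.13), and Ahsp, which binds alpha globin (-0.46 ± 0.11). Alas2 stood at -0.72 on the replicate 1 array and -0.27 on the replicate 2 array. Slc4a1 was called in 8 of the 10 settings, Alas2 in 7 and Ahsp in 6. All 3 calls were lost under median centring (adjusted p = 0.735 for Slc4a1, 0.904 for Alas2 and 1 for Ahsp) and when dim probes were kept (0.0757, 0.195 and 0.0935). The summed signal of all 12 erythroid markers was 201900 and 165200 in Gata6cKO RNAs, and 225100 and 230100 in control RNAs. Of the 9 platelet markers, Itga2b, Gp1ba and Gp6 were not well above background, and none of the other 6 passed, with a list median of -0.15 and a summed signal of 5516 and 5172 in Gata6cKO RNAs, against 6676 and 6447 in control RNAs. At an unadjusted p under 0.05, 2 of these platelet genes were lower. Gp9, a subunit of the platelet receptor for VWF, stood at -0.38 ± 0.11 on the log2 scale (limma adjusted p = 0.0904) and was called lower in 4 of the 10 settings. Of 12 measured markers of macrophages and leukocytes none passed, 1 was higher at an unadjusted p under 0.05, and the list median was -0.00.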

How the data were processed

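Two-colour Agilent arrays were used (150 ng total RNA per labelling, per the labels' protocols). The deposited scanner files hold, per the file headers, raw mean intensity and median local background intensity of each spot and dye, a processed intensity after detrending and dye normalisation, and a log10 ratio of Cy5 over Cy3 (Agilent Feature Extraction 10.7.3.1, per the submitters' processing notes). Set against the scanner files, the deposited series score ran as a signed linear fold, Gata6cKO over control (Pearson r of 0.985 and 0.98 with the processed log2 ratios, across probes; column medians 1 and 1). How its spots were summarised is not given in the sources used here. There were 0 unused per-sample columns.

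Raw intensities were analysed with limma 3.58.1 and statmod 1.5.0 (R 4.3.3): normexp background correction (offset 50), loess within arrays with control and outlier spots at weight 0, and the mean of the remaining spots per probe. Probes needed at least 3 of 4 spots well above background in Gata6cKO or in control on both arrays, which kept 26200 of 39429. Each gene was read from its brightest kept probe. Symbols were updated through RefSeq accessions and synonyms (GRCm38.p6; 28328 probes matched by accession, 1602 updated). Signals per RNA were scaled between arrays with Aquantile.

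Log2 ratios of Gata6cKO over control were fitted with lmFit and eBayes (1 residual and 11.9 prior degrees of freedom), with Benjamini-Hochberg adjustment across 19801 genes. The fit was tested on simulated data. SE is the moderated standard error. The alternatives were Agilent's processed signals, median centring, no filter, a filter on all 4 channels, averaging a gene's probes, the series values as deposited, an intensity trend, offset 0, separate channels and each array alone. The members and lists were chosen with earlier results of these data known. Genes named are the 10 members, up to 4 genes of smallest p in each other list, where a result turned on them, and a fixed set of ligands, coreceptors and markers. Probe coordinates are those of the files (mm9). No exon map was used, so the part of a transcript that a probe reads is not given. Counts of calls among the junction partners are not reported here.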

Additional observations from a re-analysis of the deposited data

Results flagged for a closer look

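For 5 of the 10 genes the male pair and the female pair gave log2 ratios of opposite sign, with 1 array for each sex, so that the difference was not tested and cannot be told apart from dye or replicate. Cdh5 had 0.36 on the replicate 1 (male) array and -0.19 on the replicate 2 (female) array. Tie1 had 0.13 and -0.35, Pecam1 0.23 and -0.048, Flt4 0.044 and -0.17, and Flt1 -0.20 and 0.10, in the same order. Opposite signs were as common among all genes, at 51.2%.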

How the results depend on the processing

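Among the 10 genes the direction of every ratio held in the 9 alternative settings that use both arrays, and Tek alone was ever called. Settings that changed only the filter, the intensity trend or the fit of channels could not turn a direction, since the ratios stay the same. With 1 array left out, the sign turned on 1 of the arrays for Cdh5, Tie1, Pecam1, Flt4 and Flt1. The count of genes called lower was 1, and 0 under median centring, when dim probes were kept and when each channel was fitted separately. The cause was not tested. The unfiltered fit adjusts over more genes (29875), and the unadjusted limma p of Tek rose there too, from 3.50e-04 to 0.00125. This p was 0.0193 under median centring and 0.00174 with separate channels, each over 19801 genes. The member median was -0.07, and -0.11 with median centring, -0.093 with the deposited series values and between -0.048 and -0.034 with 1 array left out. With 1 array no test can be made, and a value alone was computed. Over the 6 other endothelial lists, 2 genes were called higher, 1 with median centring, 0 with no filter, 1 with separate channels, and 3 with the deposited series values, the intensity trend and offset 0, where Thbd was also called. Over all genes, 465 were lower and 436 higher, against 100 and 90 with median centring, 229 and 248 with no filter, 795 and 672 with the deposited series values, and 267 and 275 with separate channels. Signs of uncalled genes turned with median centring for Cd34 (-0.014), Gata2 (-0.018), Stab1 (-0.0015), Vegfa (-0.023) and Vegfb (-0.022), and with the mean of a gene's probes for Sox17 (0.00) and Vegfa (-0.007). Median centring moved the median of all genes to -0.03. Signal over background limits Flt4 and the third Flt1 probe. The fit is paired by its construction, since each log2 ratio is taken within an array, and no further block could be added.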
